A study of Mus musculus with 11 samples.

Results

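KIT- spermatogonia of 8-month-old mice were compared with KIT- spermatogonia of 6-day-old mice across all genes, in 4 of the 11 RNA-Seq libraries, 2 at each age, chosen by their titles. The mice were B6;CBA-Tg(Pou5f1-EGFP)2Mnn/J at both ages and carried green fluorescent protein under regulatory sequence of Oct4 (Pou5f1). Cells were sorted from the testis by FACS for GFP and then by the absence of the surface receptor KIT, with about 1000000 cells of a population going into each of 2 independent experiments. A library therefore stands for a sorted pool, not for single animals, and p-values describe the spread between such pools. The other 7 libraries held KIT+ cells of 6 days, 8 months (1 library) and 15 months and KIT- cells of 15 months, and were used to estimate the spread and as levels for reference. Total RNA was depleted of ribosomal RNA and sequenced in pairs of reads. The values were RPKM, reads per kilobase of exon and 1000000 reads, and 18412 of 37205 annotated genes had enough reads (at least 10 in at least 2 libraries) to be tested. Pairs of values give replicate 1 and then replicate 2, and in a comparison written with "against" the 6-day pair comes first. Log2 fold changes are 8 months minus 6 days, so that negative values are lower in the older cells. Gene positions are those of mm9.

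Undifferentiated spermatogonia are the cells from which sperm production is maintained. They include the stem cells, and they receive GDNF from somatic cells of the niche through the receptor RET and its co-receptor GFRA1, which leads to the transcription factors ETV5, BCL6B and LHX1. FGF reaches the same kinase cascade, whose own output includes the phosphatases and adaptor proteins of the DUSP, SPRY and SPRED families that restrain it. As the cells leave this state under retinoic acid, they gain KIT. In the first days after birth the pool expands in a testis without later germ cells, whereas in the adult the pool is held at a steady size among spermatocytes, spermatids and a mature niche.

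The 4 libraries fitted their labels in the genes used for sorting. Pou5f1 (chromosome 17, 35642982 to 35647721), whose regulatory sequence drives GFP, was present in all, at 15.2 and 18.8 RPKM at 6 days and 68.7 and 52.6 RPKM at 8 months (log2 fold change 1.77, SE 0.35, adjusted p = 0.0079), and its call was lost without 6-day replicate 1 (adjusted p = 0.052) or without 8-month replicate 1 (adjusted p = 0.069). Kit had 3.36 and 3.37 RPKM at 6 days and 5.63 and 6.47 RPKM at 8 months, far under its 35.8 to 81.3 RPKM in the KIT+ libraries of the 3 ages. Ddx4, an RNA helicase of all germ cells, was at 155 and 161 against 132 and 125 RPKM and did not pass the test (adjusted p = 0.097). The 6-day libraries held 28664624 and 25717284 reads on genes and the 8-month libraries 12238333 and 16627836 (the other 7 libraries 13815101 to 76756534), so that 3 reads on 1 kb of exon stood for 0.105 and 0.117 RPKM at 6 days and 0.245 and 0.18 RPKM at 8 months. Low levels are thus less precise at 8 months. On the log2 scale the root mean square distance was 0.40 between the 6-day libraries, 0.32 between the 8-month libraries and 0.68 to 0.76 between ages.

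RNA of other cells differed between the ages, and it stands before the results because it enters the counts. Of 43 tested spermatid markers, 26 were higher at 8 months and 0 at 6 days, and their summed level was 35.6 and 36.5 RPKM at 6 days and 257 and 163 RPKM at 8 months. Tnp1, which packs DNA in spermatids before the protamines do, had 0.334 and 0.279 RPKM at 6 days and 34.01 and 17.7 RPKM at 8 months (log2 fold change 4.29, SE 0.44, adjusted p = 0.00065), and Prm2, a protamine, had 0.339 and 0.503 RPKM at 6 days and 37.2 and 17.03 RPKM at 8 months. Odf1, of the sperm tail, had 0.631 and 0.141 RPKM at 6 days and 28.2 and 13.99 RPKM at 8 months. Both 8-month libraries were above both 6-day libraries, replicate 1 more so, and without 8-month replicate 1 the count of 26 was 16. With voom weights it was 10, and Tnp1 and Prm2 were then not called. The 15-month KIT- libraries held still more, at 1255 and 607 RPKM summed, and KIT+ libraries 31.3 to 76.1 RPKM. Part of the list at 6 days was not seen at all, with 15 and 11 of its genes listed at 0. Such genes could pass the read filter only through other libraries, so the share called among those tested can partly follow from the filter.

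Transcripts known from oocytes were also found, and in all 3 8-month libraries. Of 22 tested oocyte markers, 16 were higher at 8 months and 1 at 6 days, with a summed level of 54 and 57.2 RPKM at 6 days, 187 and 146 RPKM in the 8-month KIT- libraries, 106.5 RPKM in the 8-month KIT+ library and 51 to 63.3 RPKM in the others. Of 25 listed markers 22 were tested, and a marker could pass the read filter through the 8-month libraries alone. The share called among those tested can thus partly follow from the filter. The gene higher at 6 days, Nlrp4f, made up most of the 6-day sum, with 36.8 and 36.2 against 13.8 and 14.2 RPKM. H1foo, the linker histone of the oocyte, had 0 and 0.162 against 29.9 and 20.7 RPKM, with 12.8 RPKM in the 8-month KIT+ library and 0 in both 15-month KIT- libraries. The same 8-month KIT+ library had 5.13 RPKM of Pou5f1, and the 15-month KIT- libraries 44.9 and 70.2 RPKM. Gdf9, a growth factor of oocytes, had 0 and 0.172 against 15.5 and 9.65 RPKM, and Bcl2l10 had 0 and 0.446 against 28.3 and 20.4 RPKM. The zona pellucida genes stayed low, with a mean of 1.00 RPKM for Zp3 and 0.168 RPKM for Zp2 at 8 months. By a rule chosen after the values were seen, 29 genes called higher at 8 months were at or under 0.5 RPKM in the 8 libraries of other ages and at or over 1 RPKM in all 3 8-month libraries, among them 7 of the oocyte list and 10 of the 15 genes with the lowest p that were higher at 8 months (Oosp1, H1foo, E330034G19Rik, Omt2b, Tcl1b1, Gm97, E330021D16Rik, Gm15698, Oas1d and Btg4). Xist, the RNA of the inactive X chromosome and chosen likewise, had 0.0401 and 0.226 against 1.14 and 1.08 RPKM (log2 fold change 0.90, SE 0.13, adjusted p = 0.0023). Eif2s3y, on the Y chromosome and chosen likewise, had 35.8 and 32.9 against 16.9 and 16.7 RPKM (log2 fold change -0.99, SE 0.10, adjusted p = 0.00052). Of 14 Y-linked genes tested it was the only one called (1 higher at 6 days, 0 at 8 months). The Y-linked genes together had 170 and 173.1 RPKM at 6 days and 131.2 and 142.1 RPKM at 8 months. No 8-month library lacked the oocyte transcripts, so no value without them can be given, and their part in the results was not tested.

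Somatic markers were fewer. Peritubular myoid markers were higher for 6 of 13 tested genes (3 without 8-month replicate 2), with Acta2 (smooth muscle actin) at 0.313 and 1.51 against 6.84 and 11.1 RPKM (log2 fold change 2.42, SE 0.40, adjusted p = 0.0040) and a summed level of 8.3 and 10.9 RPKM at 6 days and 28.6 and 36.6 RPKM at 8 months. Of 18 macrophage markers 0 passed in either direction (summed 5.5 and 7.2 against 9.4 and 9.1 RPKM). Cd74 was at 0.0495 and 0.386 against 0.695 and 0.8104 RPKM and H2-Aa at 0.0702 and 0.372 against 0.822 and 0.605 RPKM. Sertoli markers split, with 2 of 24 higher at 8 months (0 without any one library or with median-of-ratios scaling) and 3 at 6 days (1 with either 8-month replicate left out), the latter Amh (2.95 and 4.27 against 0.147 and 0.397 RPKM), Kitl (2.79 and 1.33 against 0.266 and 0.453 RPKM) and Inha (5.82 and 3.16 against 1.66 and 1.88 RPKM). Kitl and Inha kept their call only without 6-day replicate 2, with adjusted p of 0.11 to 0.19 and 0.13 to 0.23 without one of the other libraries. With the main scaling the Sertoli shares were 8.33% at 8 months and 12.5% at 6 days, beside 15% and 7.79% of all genes. The summed level of the Sertoli list was 92.6 and 75.7 against 85.3 and 75.1 RPKM. Leydig markers were higher for 3 of 14 (21.4%) and lower for 1 (7.14%), and endothelial markers for 3 (20%) and 1 (6.67%) of 15. These shares were near those of all genes (15% and 7.79%). Erythroid markers were higher for 3 and lower for 0 of 5. With voom weights 1 Leydig and 1 erythroid marker were called higher at 8 months. Of 10 erythroid genes in the annotation, 8 were under 1 RPKM in all 4 compared libraries. In RNA of a bulk population, fewer cells of a type and less RNA per cell cannot be told apart.

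**Figure D1:**
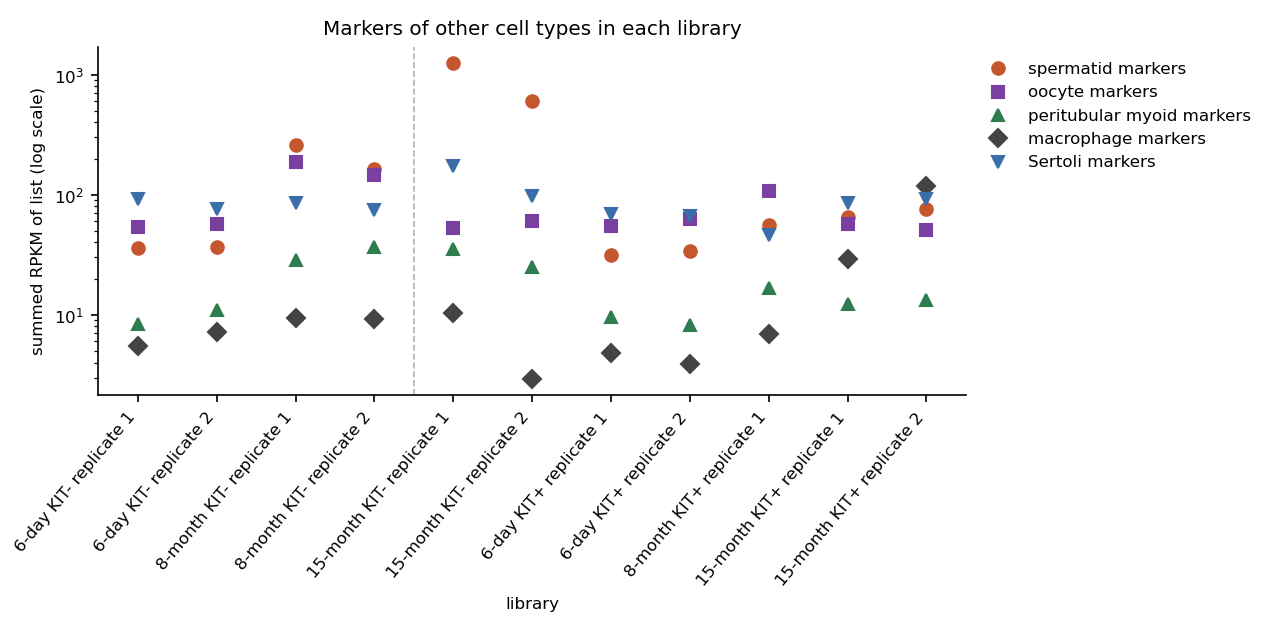
Summed RPKM of the markers of 5 other cell types (vertical axis, log scale) in each of the 11 libraries (horizontal axis), with the compared libraries left of the dashed line and each symbol 1 list in 1 library. Spermatid markers of the 8-month KIT- libraries (257 and 163) lie above those of the 6-day KIT- libraries (35.6 and 36.5), and oocyte markers are highest in the 8-month libraries (187 and 146 in KIT- cells, 106.5 in KIT+ cells).

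More genes were higher than lower in the older cells. With an FDR threshold of 0.05 and a minimum fold change of 1.5, 4191 genes (22.8% of those tested) were called. Higher at 8 months were 2757 (15% of those tested) and higher at 6 days 1434 (7.79%). A fold change of at least 4 was reached by 168 and 63 genes. This split depends on the scaling. The median log2 fold change over all genes was 0.13, and with median-of-ratios scaling, which sets each library by its median gene, it was 0.04 and 1994 genes (10.8%) were called higher at 8 months and 2108 (11.4%) at 6 days, a share of 48.6% higher in place of 65.8%. All 1434 genes higher at 6 days and 1994 of the 2757 higher at 8 months were shared by both scalings. Leaving out 8-month replicate 1 gave 1297 and 902 genes, 6-day replicate 1 gave 1754 and 1045, and 6-day replicate 2 gave 1828 and 1149.

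**Figure D2:**
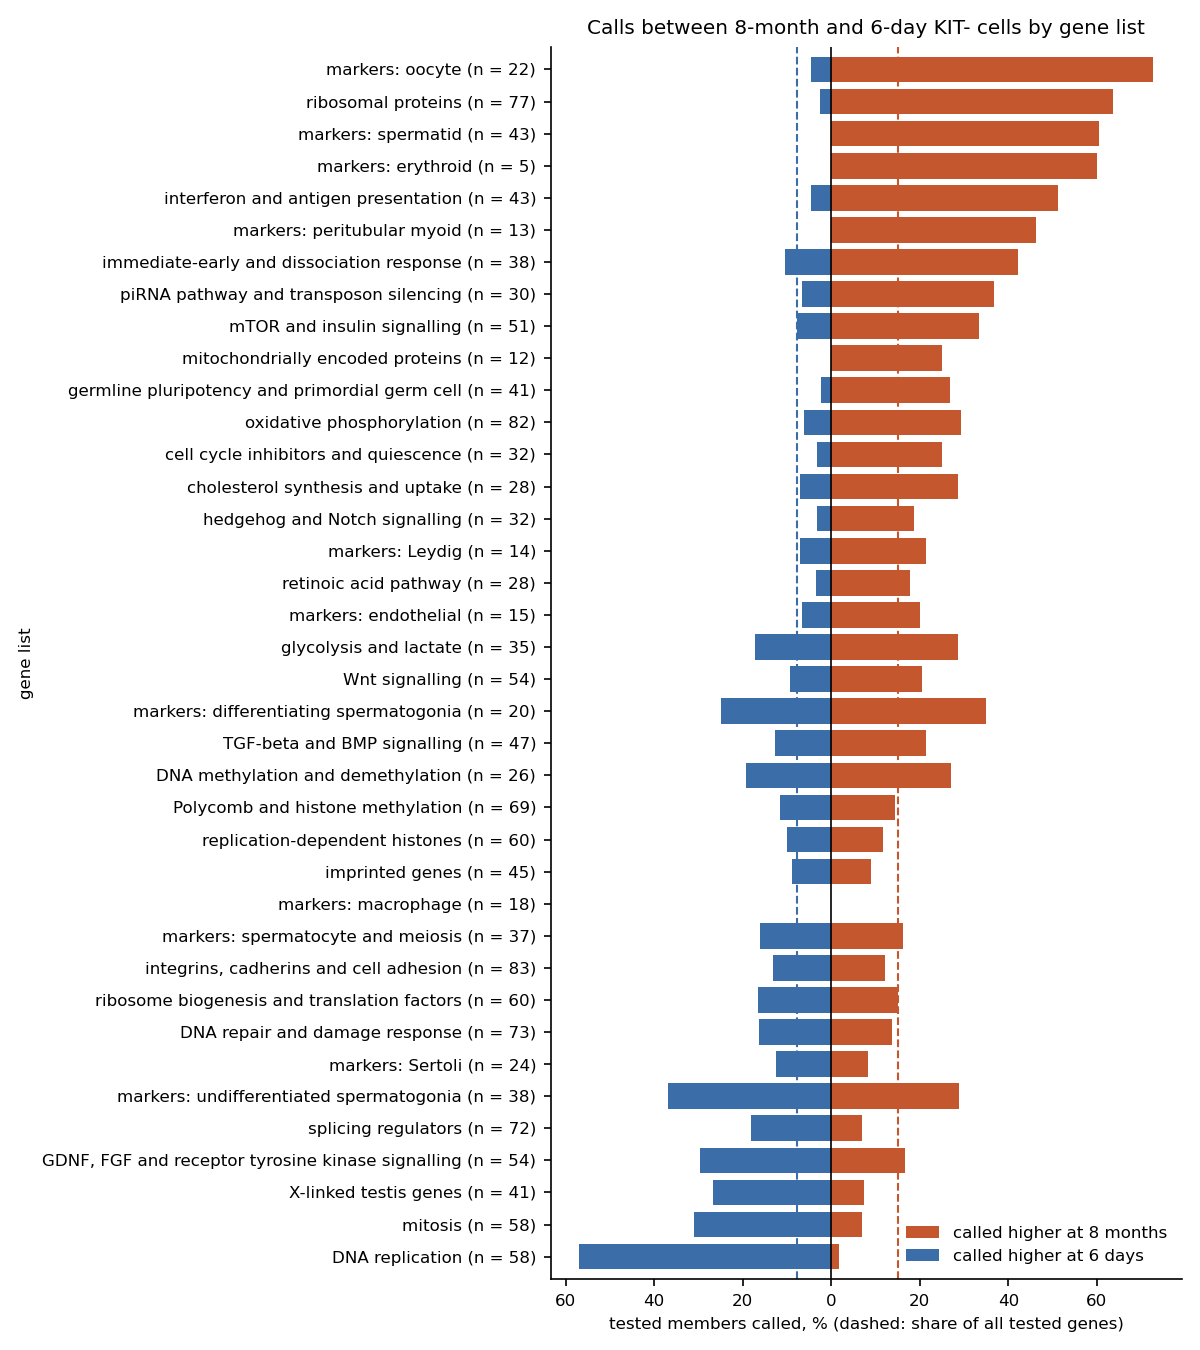
Percent of tested members of 38 gene lists called higher at 8 months (bars to the right) and at 6 days (bars to the left), with dashed lines at the share of all genes tested (15 and 7.79). DNA replication reaches farthest to the left (33 of 58), and oocyte markers (16 of 22), ribosomal proteins (49 of 77) and spermatid markers (26 of 43) reach farthest to the right.

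The receptors of GDNF signalling were lower in the older cells. Gfra1 (chromosome 19, 58310094 to 58530399), the GDNF co-receptor, had 36.2 and 36.1 RPKM at 6 days and 5.95 and 6.03 RPKM at 8 months (log2 fold change -2.41, SE 0.21, adjusted p = 0.00038), a 6.04-fold difference. Ret (chromosome 6, 118101766 to 118147762), which carries the signal into the cell, had 56.9 and 55.8 RPKM at 6 days and 31.8 and 29.8 RPKM at 8 months (log2 fold change -0.85, SE 0.14, adjusted p = 0.0039). Both libraries of 8 months were under both of 6 days for either gene. At 15 months the KIT- libraries held 6.598 and 10.6 RPKM of Gfra1 and 20.3 and 25.02 RPKM of Ret.

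The transcription factors Etv4 and Etv5 and several feedback genes of this cascade were lower as well. Etv4, an ETS factor induced by RET and FGF receptors, had 30.1 and 20.6 RPKM at 6 days and 1.68 and 1.41 RPKM at 8 months (log2 fold change -3.35, SE 0.23, adjusted p = 0.00015), and its close relative Etv5 (chromosome 16, 22381382 to 22439792) had 45.6 and 39.5 RPKM at 6 days and 6.53 and 5.39 RPKM at 8 months (log2 fold change -2.65, SE 0.16, adjusted p = 0.00012). Dusp6, a phosphatase that takes the phosphate off ERK, had 59.9 and 54.8 RPKM at 6 days and 8.39 and 7.33 RPKM at 8 months (log2 fold change -2.72, SE 0.29, adjusted p = 0.00072). The ratio of the means, 6 days over 8 months, was 16.4 for Etv4, 7.13 for Etv5 and 7.298 for Dusp6. At 15 months the KIT- libraries held 5.24 and 6.28 RPKM of Etv5, which again was under both 6-day libraries. Other genes of the GDNF, FGF and receptor tyrosine kinase list that were higher at 6 days were the receptors Erbb3 (-2.07, log2 fold change), Epha2 (-1.38) and Pdgfra (-0.71, called with all libraries and without 6-day replicate 2 only), the inhibitors Spry4 (-1.98), Spry1 (-0.99), Spred1 (-1.40), Spred3 (-0.97), Dusp4 (-1.38) and Dusp5 (-0.70) and the exchange factor Sos1 (-0.69).

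In the other direction stood 9 genes of the same list. Mapk3, the kinase ERK1, had 11.9 and 11.8 RPKM at 6 days and 48.5 and 39.3 RPKM at 8 months (log2 fold change 1.80, SE 0.19, adjusted p = 0.00074). Igf1r, the receptor of insulin-like growth factor I, had 61.1 and 56.01 against 144 and 136 RPKM (log2 fold change 1.24, SE 0.15, adjusted p = 0.0012). The rest were Kit (0.69, log2 fold change), Erbb2 (0.84), Met (1.08), Hras1 (1.14), Frs3 (1.45), the inhibitor Spry2 (1.07) and Gfra3 (0.65). In all, 16 of 54 tested members were higher at 6 days (29.6%, all genes 7.79%) and 9 at 8 months (16.7%, near the 15% of all genes). The median log2 fold change was -0.01. With median-of-ratios scaling the counts were 19 and 7, and Kit was no longer called.

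**Figure D3:**
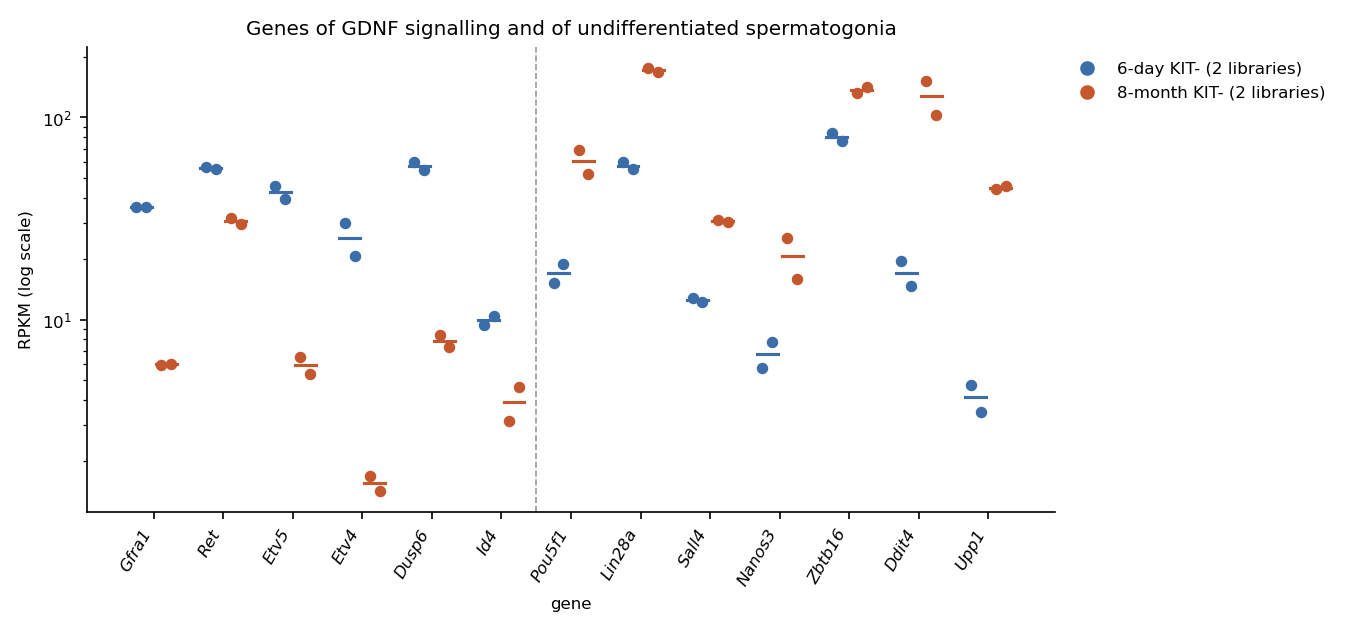
RPKM (vertical axis, log scale) of named genes (horizontal axis) in the 6-day and 8-month KIT- libraries, each point a library and each bar the mean of 2. Genes left of the dashed line, from Gfra1 (36.2 and 36.1 at 6 days) to Id4, are lower at 8 months, and those right of it, from Pou5f1 to Upp1 (44.0 and 45.7 at 8 months), are higher.

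Other genes known from undifferentiated spermatogonia did not move as a block. Of 38 tested, 14 were higher at 6 days and 11 at 8 months (median log2 fold change -0.16). Among the former, beside Gfra1, Ret, Etv5, Dusp6 and Spry4, were the transcription factors Lhx1 (5.92 and 5.55 against 0.187 and 0.0749 RPKM, log2 fold change -2.58, SE 0.16, adjusted p = 0.00012), Bcl6b (12.8 and 12.4 against 2.29 and 2.102 RPKM), Pax7 (1.76 and 1.53 against 0.446 and 0.369 RPKM) and Id4. Lhx1 and Bcl6b respond to GDNF, and Id4 is an inhibitor of helix-loop-helix factors that marks stem cells. Id4 had 9.42 and 10.4 RPKM at 6 days and 3.15 and 4.64 RPKM at 8 months (log2 fold change -1.17, SE 0.27, adjusted p = 0.015), and its call was lost without any one of 6-day replicate 1 (adjusted p = 0.058), 6-day replicate 2 (0.077) or 8-month replicate 1 (0.11). The surface proteins Cxcr4 (-1.40, log2 fold change), Epcam (-1.14), Mcam (-1.10), Itga6 (-0.81) and Plvap (-1.15) completed the list.

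Among the genes of this list that were higher in the older cells were several regulators that bind DNA or RNA. Lin28a, which binds let-7 precursors, had 59.9 and 55.3 RPKM at 6 days and 175 and 167 RPKM at 8 months (log2 fold change 1.56, SE 0.16, adjusted p = 0.00062). Zbtb16, the repressor PLZF, had 84.1 and 76.8 RPKM at 6 days and 132 and 141 RPKM at 8 months (log2 fold change 0.76, SE 0.12, adjusted p = 0.0036), which was called with the main scaling and not with median-of-ratios scaling. Sall4, a zinc finger factor that works with PLZF, had 12.8 and 12.2 against 30.98 and 30.5 RPKM (adjusted p = 0.0098). Nanos3, an RNA-binding protein, had 5.78 and 7.72 against 25.4 and 15.8 RPKM (adjusted p = 0.0079). Each of these was higher in both 8-month libraries, but Sall4 lost its call without 6-day replicate 2 (adjusted p = 0.053), 8-month replicate 1 (0.067) or 8-month replicate 2 (0.055), and Nanos3 without 6-day replicate 1 (0.054) or 8-month replicate 1 (0.066). Nanos2, a related protein that holds cells undifferentiated, was at 3.15 and 3.24 against 2.44 and 1.09 RPKM and did not pass (adjusted p = 0.17). Uchl1 (169.9 and 216 against 286 and 262 RPKM, adjusted p = 0.055) did not pass either.

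Upp1, uridine phosphorylase, had 4.77 and 3.47 RPKM at 6 days and 44.04 and 45.7 RPKM at 8 months (log2 fold change 3.18, SE 0.24, adjusted p = 0.00021). It was at 46.5 and 79.5 RPKM in the 15-month KIT- libraries and at 7.604 RPKM in the 8-month KIT+ library. Ddit4 (REDD1), an inhibitor of mTORC1 under PLZF control, had 19.5 and 14.7 RPKM at 6 days and 152 and 103 RPKM at 8 months (log2 fold change 2.81, SE 0.22, adjusted p = 0.00023). Both were far above the 6-day libraries in each 8-month library. Sox3 had 6.297 and 6.11 against 44.96 and 37.9 RPKM (log2 fold change 2.55, SE 0.22, adjusted p = 0.00038), and Piwil4, Tert and Dnd1 differed by 0.94, 1.04 and 0.89 on the log2 scale. The 11 genes of this list higher at 8 months became 5 without 8-month replicate 1 and 7 without 6-day replicate 2, and the 14 higher at 6 days became 13 or 14 whichever library was left out.

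Genes known from pluripotent and primordial germ cells were higher in 11 of 41 tested and lower in 1 (Lin28b, -0.75 on the log2 scale). Beside Lin28a, Sall4, Nanos3 and Dnd1 these were Dppa3, Klf2, Klf4, Fut4, Dppa5a, Ifitm1 and Ifitm3. Dppa3 (Stella), a factor of germ cells and of oocytes that is also on the oocyte list, had 2.15 and 3.88 RPKM at 6 days and 19.05 and 17.5 RPKM at 8 months (log2 fold change 2.29, SE 0.24, adjusted p = 0.00073). It was at 16.02 and 12.3 RPKM in the 15-month KIT- libraries, where H1foo was at 0. Klf2, a transcription factor, had 0 and 0.0421 against 1.99 and 2.41 RPKM (log2 fold change 1.65, SE 0.29, adjusted p = 0.0051).

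Differentiation genes were mixed as well. Of 20 tested, 7 were higher at 8 months and 5 at 6 days. Stra8, which retinoic acid induces before meiosis, was at 11.4 and 10.3 against 15.5 and 15.5 RPKM (adjusted p = 0.15), so that no difference was called. Dazl, an RNA-binding protein of germ cells that is not counted in this list, had 351 and 393 RPKM at 6 days and 170.4 and 188 RPKM at 8 months (log2 fold change -1.05, SE 0.14, adjusted p = 0.0018). Rarg, the retinoic acid receptor of undifferentiated spermatogonia that await the signal, had 2.75 and 3.07 RPKM at 6 days and 14.8 and 14.9 RPKM at 8 months (log2 fold change 2.02, SE 0.16, adjusted p = 0.00028). Lmo1 had 1.401 and 1.78 against 13.2 and 9.88 RPKM (log2 fold change 2.27, SE 0.22, adjusted p = 0.00055), and Sohlh1, a helix-loop-helix factor of differentiating cells, had 16.2 and 13.1 against 55.1 and 47.2 RPKM. The others higher at 8 months were Esx1, Dnmt3b, Kit and Crabp1, and those higher at 6 days were Ccnd2, Ccnd1, Uhrf1, Sohlh2 (-0.90, log2 fold change) and Tex101 (-0.68). In the retinoic acid pathway 5 of 28 (17.9%, near the 15% of all genes) were higher at 8 months, Rarg, Crabp1, Rara and Aldh1a2 among them, and 1 at 6 days (Rxrg). The 5 became 3 without 6-day replicate 1 or with either 8-month replicate left out. The call of Aldh1a2 was kept without 6-day replicate 2 only. Crabp1, a carrier of retinoic acid, had 8.53 and 9.94 against 30.2 and 23.3 RPKM (adjusted p = 0.024) and missed the threshold without any one of the 4 libraries (adjusted p = 0.072 to 0.15).

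Of the gene lists described here, DNA replication had the largest share of genes lower in the older cells. Of 58 tested members, 33 (56.9%) were higher at 6 days and 1, Gins4 (39.2 and 36.8 against 75.2 and 63.2 RPKM), at 8 months, with a median log2 fold change of -0.69, or 39 and 1 with median-of-ratios scaling. Leaving out any one library kept 27 to 31 of them. Pcna, the sliding clamp of the replication fork, had 131 and 116 RPKM at 6 days and 28.4 and 31.6 RPKM at 8 months (log2 fold change -2.00, SE 0.12, adjusted p = 0.00012). Rrm2, which limits the supply of deoxynucleotides, had 19.3 and 17.8 RPKM at 6 days and 3.98 and 3.08 RPKM at 8 months (log2 fold change -2.12, SE 0.18, adjusted p = 0.00037), and its partner subunit Rrm1 had 189.8 and 214 RPKM at 6 days and 52.7 and 59.7 RPKM at 8 months (log2 fold change -1.83, SE 0.11, adjusted p = 0.00012). Clamp and reductase were lower in each 8-month library than in either 6-day library. Rfc4, of the clamp loader, had 86.4 and 70.9 against 19.2 and 20.3 RPKM, and Prim1, the primase, had 21.0 and 21.9 against 5.69 and 5.603 RPKM. All 6 subunits of the MCM2-7 helicase were called lower at 8 months (log2 fold changes of -0.87 for Mcm2, -1.36 for Mcm3, -0.99 for Mcm4, -1.31 for Mcm5, -1.23 for Mcm6 and -0.94 for Mcm7), as were Mcm10 (-1.34), Cdc45 (-0.86), Orc1 (-0.64) and both E cyclins, Ccne1 (-1.14) and Ccne2 (-0.68).

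E2F factors bind the promoters of many replication genes, and their motif was looked for as TTTCCCGC or TTTGGCGC on both strands in RefSeq windows of 250 bases before to 50 bases after the start (GRCm38.p6, the first window listed per gene). A window was found for 49 of the 58 genes. Of these, 17 (34.7%) held the motif, against 441 of 27025 windows of all genes (1.63%) and 322 of 11583 windows of tested genes (2.78%). Within the list, 8 of 29 genes higher at 6 days (27.6%) and 9 of 20 not called (45%) held it. The share was not higher among the called genes of the list. The windows of 3 helicase subunits are shown because they carry the motif (in capitals) in genes that were called, a choice made after their values were seen. Their coordinates are chr1:128359656-128359955 for Mcm6 (minus strand, 2 matches), chr1:20820263-20820562 for Mcm3 (minus strand, 2 matches) and chr8:75109259-75109558 for Mcm5 (plus strand, 1 match). Mcm6 had 94.2 and 94.3 against 39.1 and 40.2 RPKM, Mcm3 128 and 112 against 46.2 and 45.6 RPKM and Mcm5 105 and 95.4 against 39.03 and 40.5 RPKM.
Mcm6: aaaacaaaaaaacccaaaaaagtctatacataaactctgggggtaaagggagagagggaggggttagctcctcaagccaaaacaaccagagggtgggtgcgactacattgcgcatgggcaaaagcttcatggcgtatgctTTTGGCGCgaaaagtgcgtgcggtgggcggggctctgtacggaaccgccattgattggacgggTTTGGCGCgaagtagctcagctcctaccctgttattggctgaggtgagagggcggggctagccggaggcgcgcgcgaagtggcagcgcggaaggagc
Mcm3: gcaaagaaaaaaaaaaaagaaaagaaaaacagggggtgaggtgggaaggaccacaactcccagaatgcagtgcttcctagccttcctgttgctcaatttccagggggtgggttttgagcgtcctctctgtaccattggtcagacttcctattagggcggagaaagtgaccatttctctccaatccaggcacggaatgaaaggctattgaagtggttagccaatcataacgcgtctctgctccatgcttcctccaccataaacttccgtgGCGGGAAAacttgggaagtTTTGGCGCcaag
Mcm5: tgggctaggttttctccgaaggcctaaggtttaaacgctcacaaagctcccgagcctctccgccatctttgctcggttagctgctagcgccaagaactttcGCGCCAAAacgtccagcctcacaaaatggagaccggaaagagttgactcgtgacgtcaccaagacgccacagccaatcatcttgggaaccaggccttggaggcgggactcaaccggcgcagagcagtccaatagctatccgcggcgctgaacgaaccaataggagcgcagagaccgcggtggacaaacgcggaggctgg

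Genes of later cell cycle phases and of entry into the cycle followed in smaller number. Of 58 mitosis genes, 18 were higher at 6 days and 4 at 8 months (Bub3, Cdca8, Pttg1 and Cdc25c), with a median log2 fold change of -0.41. The 18 became 32, and the 4 became 2, with median-of-ratios scaling, and without 8-month replicate 2 the 18 became 12. Top2a, which untangles chromosomes, had 114 and 106 RPKM at 6 days and 45.3 and 46.5 RPKM at 8 months (log2 fold change -1.24, SE 0.10, adjusted p = 0.00023), and Nuf2, of the kinetochore, had 68.2 and 62.0 against 20.03 and 21.5 RPKM (log2 fold change -1.60, SE 0.20, adjusted p = 0.0014). In the 8-month KIT+ library Top2a was at 167 RPKM, above all 4 KIT- libraries compared. The D-type cyclins, which start the cycle in answer to growth factors, were lower too, with 51.95 and 43.9 RPKM at 6 days and 10.9 and 11.2 RPKM at 8 months for Ccnd2 (log2 fold change -2.02, SE 0.19, adjusted p = 0.00045) and 27.8 and 27.5 RPKM at 6 days and 8.37 and 6.74 RPKM at 8 months for Ccnd1 (log2 fold change -1.75, SE 0.13, adjusted p = 0.00020).

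Some inhibitors of the cell cycle were higher in the older cells. Of 32 tested in the list of inhibitors and quiescence genes, 8 were higher at 8 months (25%, all genes 15%) and 1 at 6 days (3.1%, all genes 7.79%). Cdkn1b (p27) had 5.76 and 5.59 RPKM at 6 days and 13.8 and 16.2 RPKM at 8 months (log2 fold change 1.26, SE 0.15, adjusted p = 0.0012), and 0.716 RPKM in the 8-month KIT+ library. Cdkn2b (p15) had 0.351 and 0.475 against 2.46 and 2.202 RPKM (log2 fold change 1.24, SE 0.21, adjusted p = 0.0042). Cdkn2a, the locus of p16 and ARF, had 6.798 and 8.14 against 17.9 and 17.1 RPKM (adjusted p = 0.0078), which missed the threshold without 6-day replicate 1 (0.053) or 8-month replicate 1 (0.06). Ddit4, Tsc2, Btg3, Klf4 and Foxo3 made up the rest. With median-of-ratios scaling the counts were 6 and 5 of 32, beside 10.8% and 11.4% of all genes, so the balance depended on the scaling.

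**Figure D4:**
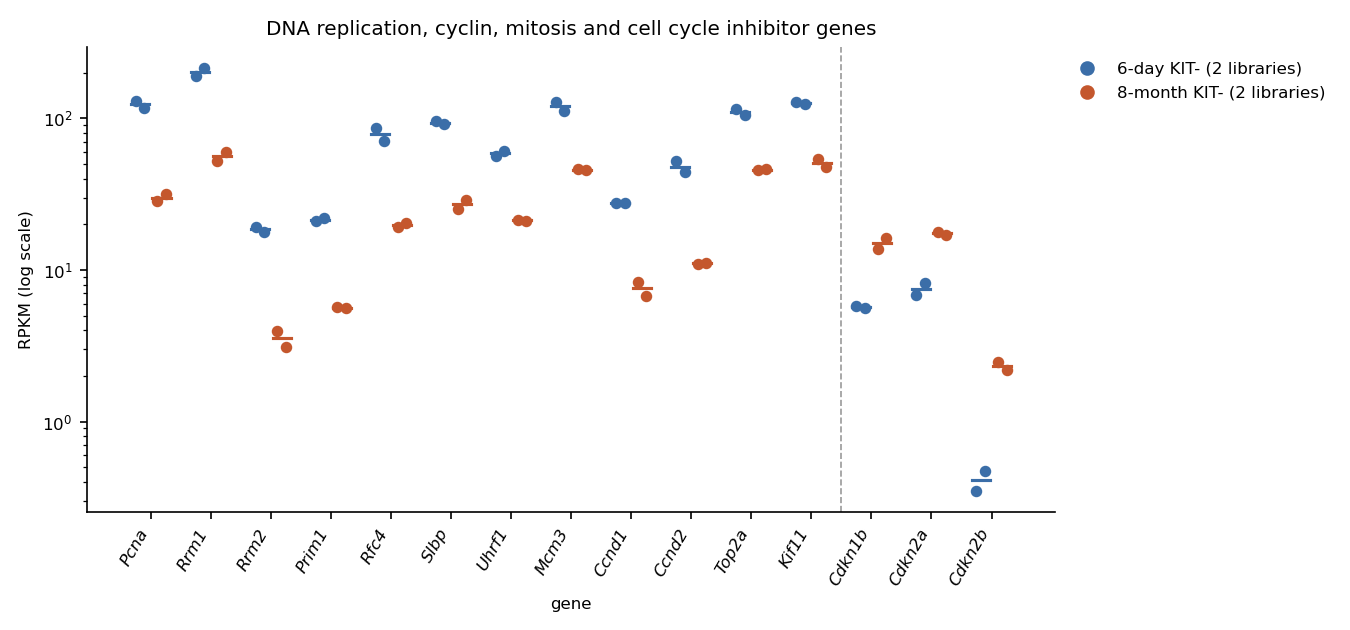
RPKM (vertical axis, log scale) of cell cycle genes (horizontal axis) in the 6-day and 8-month KIT- libraries, each point a library and each bar the mean of 2. The genes left of the dashed line, of replication, cyclins and mitosis, are lower at 8 months, as Pcna (131 and 116 against 28.4 and 31.6), and the 3 inhibitors right of it are higher, as Cdkn1b (5.76 and 5.59 against 13.8 and 16.2).

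Signalling through insulin and mTOR sets cell growth. Of 51 tested, 17 were higher at 8 months and 4 at 6 days (median log2 fold change 0.34), but with median-of-ratios scaling 9 and 9. The 17 became 10 without 6-day replicate 2 or without 8-month replicate 1. Akt1, the kinase below the insulin receptors, had 9.97 and 7.53 RPKM at 6 days and 30.1 and 28.1 RPKM at 8 months (log2 fold change 1.64, SE 0.15, adjusted p = 0.00044), and Igfbp6, which binds insulin-like growth factor II, had 1.51 and 2.38 RPKM at 6 days and 25.9 and 16.9 RPKM at 8 months (log2 fold change 2.91, SE 0.31, adjusted p = 0.00076). Among the 17 were also Mtor (0.74, log2 fold change) and its partner Rptor (0.62), beside the pathway's inhibitors Ddit4 (2.81), Tsc2 (0.87), Akt1s1 (0.60) and Stk11 (0.67). Higher at 6 days were Igf2bp3 (15.8 and 15.9 against 5.77 and 4.85 RPKM), Igf2bp1 and the inhibitor Deptor among others. The genes higher at 8 months thus held both activators and inhibitors of the pathway. Grb10, an imprinted gene whose product restrains the insulin receptor, had 2.17 and 2.07 RPKM at 6 days and 20.9 and 18.99 RPKM at 8 months (log2 fold change 2.75, SE 0.18, adjusted p = 0.00012).

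Ribosomal protein genes were higher at 8 months for 49 of 77 tested and lower for 2 (Rpl39 and Rpl5), with a median log2 fold change of 0.95, and for 39 and 3 with median-of-ratios scaling. Rps10 had 16.1 and 20.7 RPKM at 6 days and 75.6 and 60.98 RPKM at 8 months (log2 fold change 1.84, SE 0.24, adjusted p = 0.0016), and Rpl13a had 28.2 and 28.4 RPKM at 6 days and 145 and 79.5 RPKM at 8 months (log2 fold change 1.89, SE 0.28, adjusted p = 0.0029). Replicate 1 of 8 months was the higher of the pair in both, and without it 28 of the 49 were called, or 33 without 6-day replicate 1. These genes have many near-identical copies in the genome, and reads could be split among them. Rps26-ps1, by its symbol such a copy but annotated as protein-coding, was itself called (4.56 and 3.295 against 32.2 and 34.8 RPKM). Genes that make ribosomes or start translation split, with 9 of 60 higher at 8 months (15%, as over all genes) and 10 at 6 days (16.7%, all genes 7.79%). The counts were 7 and 15 with median-of-ratios scaling and 5 and 10 without 6-day replicate 2. They were 5 and 5 without 8-month replicate 1 and 8 and 5 without 8-month replicate 2. Ubtf, which activates transcription of ribosomal RNA, had 186 and 125 RPKM at 6 days and 52.5 and 40.4 RPKM at 8 months (log2 fold change -1.70, SE 0.31, adjusted p = 0.0062), a call lost without 8-month replicate 2, and Npm1 differed by -1.45 and Nop58 by -1.18 on the log2 scale. Etf1, which ends translation at stop codons, had 111 and 107 against 34.6 and 34.6 RPKM (log2 fold change -1.63, SE 0.08, adjusted p = 7.9e-05), and Eif4g3, a scaffold of initiation, had 1.72 and 1.46 against 8.46 and 7.96 RPKM.

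Of 82 nuclear genes of oxidative phosphorylation, 24 were higher at 8 months and 5 at 6 days (median log2 fold change 0.57), or 17 and 10 with median-of-ratios scaling, and 11 in place of 24 without 8-month replicate 1. Cox6b1, of cytochrome c oxidase, had 66.2 and 51.8 RPKM at 6 days and 287 and 165 RPKM at 8 months (log2 fold change 1.88, SE 0.27, adjusted p = 0.0024), and Ndufb11, of complex I, had 8.68 and 9.08 RPKM at 6 days and 33.9 and 27.4 RPKM at 8 months (log2 fold change 1.67, SE 0.20, adjusted p = 0.0012). Genes of complex I (Nduf) supplied 15 of the 24, a count that was not set against the number of such genes tested. The 5 genes higher at 6 days were Atp5f1 (73.8 and 93.7 against 22.3 and 22.8 RPKM, log2 fold change -1.84, SE 0.20, adjusted p = 0.00074) and Atp5c1, which encode subunits of ATP synthase, and Sdha, Cycs and Uqcrc2. Of 12 tested genes of the mitochondrial genome, 3 were higher at 8 months (mt-Nd2, mt-Nd4 and mt-Cytb). mt-Nd2 had 77.8 and 79.4 against 205 and 260.0 RPKM, and missed the threshold without 8-month replicate 2 (adjusted p = 0.056). mt-Nd4 missed it without any one library (0.063 to 0.085), and mt-Cytb without each but 8-month replicate 1 (0.065 to 0.12).

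Glycolysis genes went both ways, with 10 of 35 higher at 8 months and 6 at 6 days (8 and 8 with median-of-ratios scaling). The balance rested on single libraries, with 3 and 5 called without 6-day replicate 1 or 8-month replicate 1, and 5 and 5 without 6-day replicate 2 or 8-month replicate 2. Gapdh had 222 and 257 RPKM at 6 days and 82.4 and 83.6 RPKM at 8 months (log2 fold change -1.51, SE 0.12, adjusted p = 0.00024). Pdk1, a kinase that inhibits pyruvate dehydrogenase, had 38.8 and 41.7 against 18.5 and 17.02 RPKM (log2 fold change -1.14, SE 0.12, adjusted p = 0.00066). Hk2 (-0.90, log2 fold change), Slc16a1 (-1.0), Pdhb (-0.77) and Hif1a (-0.75) were lower as well. Among the genes higher at 8 months were Ldha (0.84), Hk1 (0.86), Eno1 (0.64), Slc2a1 (0.72) and Pgam2, the muscle and sperm form of its enzyme (0 and 0.0463 against 6.13 and 3.65 RPKM, and 12.2 and 3.93 RPKM at 15 months). Cholesterol synthesis and uptake had 8 of 28 higher at 8 months, under either scaling, and 2 lower. Mvd, which makes isopentenyl diphosphate, had 9.47 and 8.68 against 33.5 and 27.3 RPKM (log2 fold change 1.63, SE 0.18, adjusted p = 0.00076).

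**Figure D5:**
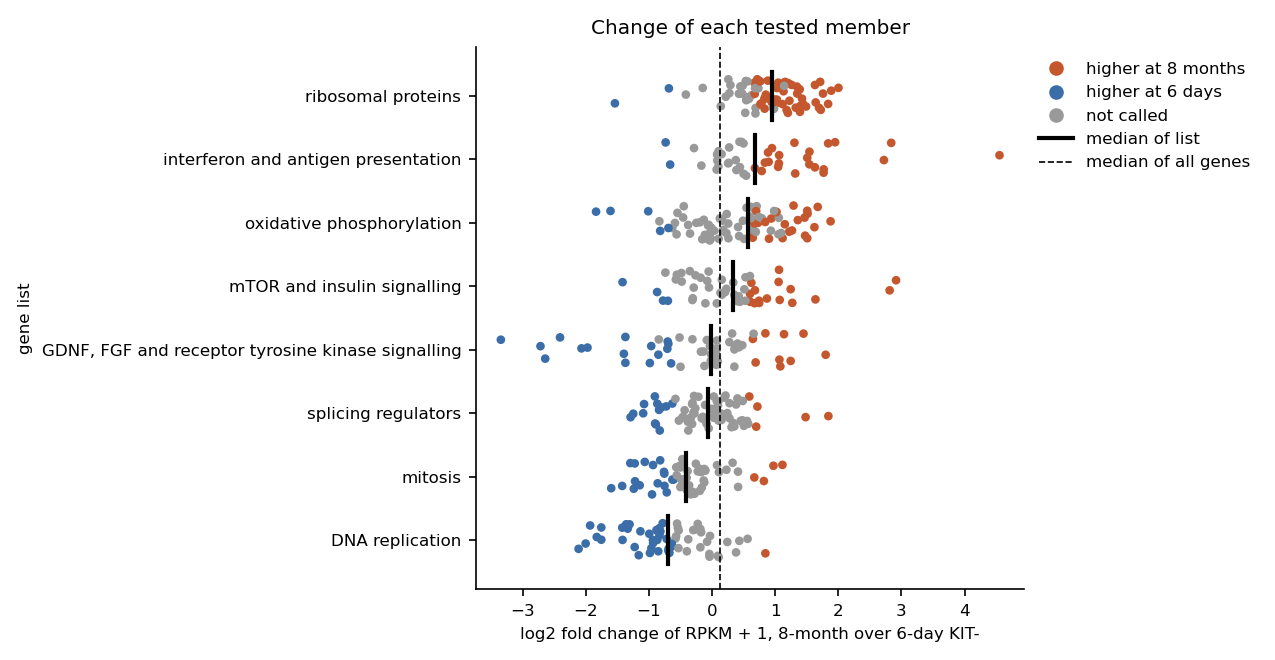
Log2 fold change of RPKM + 1 (8 months minus 6 days, horizontal axis) of each tested member of 8 gene lists (vertical axis), each point a gene, coloured by its call, with the median of each list as a bar and that of all genes (0.13) as a dashed line. The bars run from -0.69 for DNA replication to 0.95 for ribosomal proteins, and the point farthest to the right is Gbp2 (4.55).

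Interferon-responsive and antigen presentation genes were higher in the older cells. Of 43 tested, 22 (51.2%) were higher at 8 months and 2 (the receptor chains Ifngr1 and Ifnar2) at 6 days, with a median log2 fold change of 0.68, and 19 and 2 with median-of-ratios scaling. Leaving out any one library kept 15 to 18. Gbp2, a GTPase induced by interferon, had 1.21 and 0.665 RPKM at 6 days and 46.7 and 41.5 RPKM at 8 months (log2 fold change 4.55, SE 0.26, adjusted p = 0.00012), with 51.6 and 72.8 RPKM in the 15-month KIT- libraries and 1.18 RPKM in the 8-month KIT+ library. Psmb10, of the immunoproteasome, had 4.56 and 6.43 RPKM at 6 days and 46.8 and 36.7 RPKM at 8 months (log2 fold change 2.72, SE 0.20, adjusted p = 0.00019), and Tapbp, which loads peptides onto class I molecules, had 7.54 and 6.93 RPKM at 6 days and 28.96 and 32.7 RPKM at 8 months (log2 fold change 1.95, SE 0.12, adjusted p = 0.00012). The 8-month KIT+ library lay near the 6-day KIT- level in these 3 genes. Oasl2 had 0.908 and 1.25 against 14.1 and 13.6 RPKM. The transcription factors Stat2 (0.68, log2 fold change), Irf1 (1.32) and Irf9 (1.06) and the class I genes H2-K1 (1.77), H2-D1 (1.30) and B2m (0.90) were among those called. The macrophage markers were at a summed 5.5 and 7.2 RPKM at 6 days and 9.4 and 9.1 RPKM at 8 months. The part of other cells in these counts was not tested.

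In TGF-beta and BMP signalling, 10 of 47 genes were higher at 8 months (21.3%, all genes 15%) and 6 at 6 days (12.8%, all genes 7.79%). With median-of-ratios scaling 7 and 7 were called, and the 6 became 3 without 6-day replicate 2 or 8-month replicate 1. Bmpr1a, a BMP receptor, had 62.7 and 62.3 RPKM at 6 days and 16.6 and 16.3 RPKM at 8 months (log2 fold change -1.86, SE 0.09, adjusted p = 7.9e-05), among the smallest p-values of the comparison. Smad7, which blocks these receptors, had 11.7 and 10.3 against 2.49 and 3.099 RPKM, and Fst, which binds activin, had 57.1 and 57.3 against 24.97 and 17.3 RPKM. Both were lower at 8 months. Tgfbr3, a co-receptor, had 1.07 and 1.05 against 7.24 and 5.77 RPKM (log2 fold change 1.86, SE 0.22, adjusted p = 0.0011). In Wnt signalling 11 of 54 were higher at 8 months (20.4%, all genes 15%) and 5 at 6 days (9.26%, near the 7.79% of all genes). With median-of-ratios scaling 6 and 6 were called, and the 11 became 5 to 7 when a library was left out. Sfrp2, a secreted Wnt antagonist, had 52.2 and 36.8 RPKM at 6 days and 9.45 and 8.55 RPKM at 8 months (log2 fold change -2.17, SE 0.24, adjusted p = 0.00082). Rspo1, which raises Wnt signals, had 0.738 and 0.1404 against 4.55 and 3.38 RPKM (log2 fold change 1.81, SE 0.25, adjusted p = 0.0020). In the hedgehog and Notch list 6 of 32 (18.8%, near the 15% of all genes) were higher and 1 lower (Rbpj, -0.59 on the log2 scale). Ptch1, the hedgehog receptor and itself a target of the pathway, had 12.2 and 11.96 against 32.5 and 30.6 RPKM, Jag2, a Notch ligand, had 7.01 and 7.59 against 18.5 and 20.3 RPKM and Hey1, a Notch target, had 1.52 and 1.66 against 7.23 and 6.99 RPKM.

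Genes of DNA methylation and chromatin were found in both directions. Uhrf1, which brings DNMT1 to hemimethylated DNA, had 56.3 and 61.3 RPKM at 6 days and 21.5 and 21.0 RPKM at 8 months (log2 fold change -1.43, SE 0.08, adjusted p = 0.00012), the helicase Hells had 84.5 and 99.6 against 26.9 and 31.5 RPKM (log2 fold change -1.62, SE 0.11, adjusted p = 0.00016) and Dnmt1 had 189 and 184 against 109 and 97.1 RPKM (log2 fold change -0.86, SE 0.11, adjusted p = 0.0016). All 3, which act in maintenance methylation, were lower at 8 months. Dnmt3b, which adds new methylation, had 12.4 and 11.4 against 24.9 and 25.4 RPKM, and Tet3, which oxidises it, differed by 1.09 on the log2 scale. In all, 7 of 26 genes of the methylation list were higher at 8 months and 5 at 6 days, but 3 and 4 without 6-day replicate 1, 4 and 4 without 8-month replicate 1 and 3 and 5 without 8-month replicate 2. Of 69 Polycomb and histone methylation genes, 10 (14.5%, near the 15% of all genes) were higher at 8 months and 8 at 6 days, but 6 and 10 with median-of-ratios scaling, 6 and 7 without 6-day replicate 1, 6 and 6 without 6-day replicate 2 and 4 and 6 with either 8-month replicate left out. Those higher at 6 days included the PRC2 subunits Ezh2 (10.4 and 8.33 against 4.87 and 4.45 RPKM), Suz12 (-0.80, log2 fold change), Rbbp4 (-0.75), Rbbp7 (-0.73) and Phf19 (-0.77). Phf1, another partner of PRC2, had 4.38 and 5.59 against 13.2 and 13.2 RPKM, and Mll2, an H3K4 methyltransferase, had 5.78 and 6.298 against 16.0 and 16.4 RPKM, both higher at 8 months. Cbx5, the heterochromatin protein HP1 alpha, had 49.3 and 43.9 against 10.3 and 11.1 RPKM (log2 fold change -2.02, SE 0.12, adjusted p = 0.00012).

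Of 30 genes of the piRNA pathway, which silences transposons in germ cells, 11 were higher at 8 months and 2 at 6 days, or 7 and 4 with median-of-ratios scaling, and the 11 became 5 without 8-month replicate 1, 6 without 6-day replicate 1 and 7 without 6-day replicate 2. Tdrd9, a helicase of the pathway, had 32.2 and 29.4 RPKM at 6 days and 74.5 and 79.02 RPKM at 8 months (log2 fold change 1.29, SE 0.09, adjusted p = 0.00016). Piwil4, the Argonaute that guides methylation of transposons, had 7.47 and 7.63 against 15.6 and 15.1 RPKM (log2 fold change 0.94, SE 0.20, adjusted p = 0.011), and its call was lost without any one library (adjusted p = 0.05 to 0.073). In the imprinted list 4 of 45 were higher at either age (8.89%, all genes 15% at 8 months and 7.79% at 6 days). With median-of-ratios scaling 4 were higher at 8 months and 9 at 6 days. Those higher at 8 months became 1 without 6-day replicate 1 or 8-month replicate 1 and 2 without 8-month replicate 2. Mest had 18.1 and 14.9 RPKM at 6 days and 2.37 and 2.12 RPKM at 8 months (log2 fold change -2.43, SE 0.16, adjusted p = 0.00014) and Snrpn had 11.5 and 12.1 against 4.28 and 3.12 RPKM (log2 fold change -1.46, SE 0.21, adjusted p = 0.0023), opposite to Grb10. Of 60 replication-dependent histones 7 were higher at 8 months (11.7%, all genes 15%) and 6 at 6 days (10%, all genes 7.79%). The 7 fell to 1 without 8-month replicate 1, and the 6 fell to 0 to 2 when a library was left out.

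The X chromosome differed from the autosomes. Of 778 tested X-linked genes, 42 (5.4%) were higher at 8 months and 105 (13.5%) at 6 days, with a median log2 fold change of -0.06, whereas 2710 (15.4%) and 1327 (7.54%) of 17596 autosomal genes were, with a median of 0.13. With median-of-ratios scaling 31 and 140 X-linked genes were called. Usp26, an X-linked ubiquitin protease of the testis, had 184 and 176 RPKM at 6 days and 36.95 and 39.7 RPKM at 8 months (log2 fold change -2.20, SE 0.10, adjusted p = 7.9e-05), and Tex13 had 121 and 131 against 32.2 and 36.9 RPKM (log2 fold change -1.84, SE 0.12, adjusted p = 0.00012). Of 41 X-linked testis genes, 11 were higher at 6 days, among them 5 of the Magea family, whose members are near copies, and 3 at 8 months (Akap4, Esx1 and Rhox10). The 11 became 7 without 8-month replicate 1. Genes of meiosis, also expressed before it starts, gave 6 of 37 in each direction (16.2%, all genes 15% at 8 months and 7.79% at 6 days). Those higher at 8 months became 3 without 8-month replicate 1 and 2 with voom weights. Smc1b, the meiotic cohesin, had 184 and 202 against 54.3 and 56.01 RPKM (log2 fold change -1.79, SE 0.23, adjusted p = 0.0014), while Ldhc and Pgk2, enzymes of spermatocytes and spermatids, had 3.58 and 1.77 against 41.1 and 28.4 RPKM and 0.0438 and 0.464 against 7.39 and 4.53 RPKM.

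Adhesion genes held 11 of 83 higher at 6 days and 10 at 8 months, or 14 and 6 with median-of-ratios scaling, and the 10 became 6 without 6-day replicate 1 or 8-month replicate 1. With the main scaling the adhesion shares were 13.3% at 6 days and 12% at 8 months, beside 7.79% and 15% of all genes. Itgb1, the integrin chain by which stem cells hold to laminin, had 106 and 117 RPKM at 6 days and 34.6 and 34.3 RPKM at 8 months (log2 fold change -1.66, SE 0.11, adjusted p = 0.00013). Its partners Itga6 (-0.81, log2 fold change), Itgav (-1.29) and Itga7 (-1.29) were lower as well, while Itga9 (1.10) and the laminin chains Lama5 (1.19) and Lamb1 (0.66) were higher. Splicing regulators were lower at 8 months for 13 of 72 and higher for 5, the latter 2 with median-of-ratios scaling or without 6-day replicate 2 and 3 with either 8-month replicate left out. With the main scaling the splicing shares were 18.1% lower and 6.94% higher at 8 months, beside 7.79% and 15% of all genes. Hnrnpa2b1 had 163 and 205 against 68.6 and 79.9 RPKM (log2 fold change -1.29, SE 0.23, adjusted p = 0.0050), and Qk had 36.7 and 37.8 against 15.9 and 14.3 RPKM (log2 fold change -1.25, SE 0.11, adjusted p = 0.00043). Mbnl2 had 5.19 and 5.71 against 22.2 and 22.03 RPKM (log2 fold change 1.84, SE 0.18, adjusted p = 0.00053) and Rbm38 9.78 and 6.64 against 25.01 and 23.7 RPKM. Of 73 DNA repair genes 12 were lower (16.4%, all genes 7.79%) and 10 higher (13.7%, near the 15% of all genes). The counts were 18 and 4 with median-of-ratios scaling, 7 and 6 without 6-day replicate 1 and 9 and 3 without 6-day replicate 2. They were 8 and 2 without 8-month replicate 1 and 6 and 4 without 8-month replicate 2. Chek1, the checkpoint kinase of stalled replication, had 22.9 and 23.6 against 8.95 and 9.33 RPKM (log2 fold change -1.26, SE 0.10, adjusted p = 0.00022).

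Immediate-early genes, which tissue dissociation can induce, were higher at 8 months for 16 of 38 and lower for 4. The summed level of the list went the other way, with 4111 and 2940 RPKM at 6 days and 1329 and 1245 RPKM at 8 months. Jund had 4.55 and 5.58 against 18.6 and 17.9 RPKM (log2 fold change 1.67, SE 0.26, adjusted p = 0.0034), and the heat shock gene Hspa1a had 2.22 and 2.07 against 15.7 and 12.5 RPKM (log2 fold change 2.25, SE 0.29, adjusted p = 0.0014). Fos (1.11, log2 fold change), Jun (1.15), Fosb (1.41) and Atf3 (1.39) were among the 16, which became 9 without 8-month replicate 1 and 10 without 6-day replicate 1. Egr2, a target of growth factor signalling, stood opposite, with 10.6 and 11.1 against 1.42 and 1.95 RPKM (log2 fold change -2.16, SE 0.21, adjusted p = 0.00049), as did Hsp90aa1 with 1559 and 1131 against 358 and 392 RPKM. Their part in the other results was not tested.

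Among the genes of lowest p in no list above, Fgd5 (chromosome 6, 91928872 to 92025998), an exchange factor for Cdc42, had 1.63 and 1.51 RPKM at 6 days and 36.9 and 36.7 RPKM at 8 months (log2 fold change 3.88, SE 0.13, adjusted p = 2.7e-05), a 23.5-fold difference. It was at 28.7 and 25.5 RPKM in the 15-month KIT- libraries and at 3.15 RPKM in the 8-month KIT+ library. Reln, a large secreted glycoprotein, had 7.49 and 7.72 against 34.6 and 37.4 RPKM, and Mast3, a kinase, had 3.05 and 3.32 against 17.4 and 17.6 RPKM. Both were near their KIT- level in the 8-month KIT+ library, at 35.2 and 21.5 RPKM. In the other direction Plekhh3 had 17.3 and 12.95 RPKM at 6 days and 0.388 and 0.185 RPKM at 8 months (log2 fold change -3.64, SE 0.21, adjusted p = 0.00012), and Nucks1, a nuclear protein, had 46.1 and 46.2 against 14.03 and 12.7 RPKM. 2810417H13Rik had 20.9 and 17.3 against 1.15 and 1.24 RPKM, 8430419L09Rik 21.5 and 19.97 against 2.12 and 2.75 RPKM and Ncapg2, of the condensin II complex, 60.8 and 63.96 against 24.9 and 23.9 RPKM.

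Among lincRNAs, 46 of 695 tested (6.62%) were higher at 8 months and 7 (1.01%) at 6 days, and among snoRNAs 29 (12.03%) and 4 (1.66%) of 241, all under the shares of all genes (15% and 7.79%). In the non-coding genes of lowest p, Gm11361 had 22.1 and 24.3 against 199 and 153 RPKM (log2 fold change 2.86, SE 0.18, adjusted p = 0.00012) and 1110050K14Rik had 0.353 and 0.511 against 6.36 and 6.22 RPKM (log2 fold change 2.35, SE 0.19, adjusted p = 0.00028). Gm11019 had 6.31 and 8.25 against 0.3 and 0.265 RPKM (log2 fold change -2.68, SE 0.20, adjusted p = 0.00019), and AI662270 had 16.2 and 11.1 against 2.41 and 2.02 RPKM (log2 fold change -2.17, SE 0.23, adjusted p = 0.00066). These non-coding genes were picked among called genes whose libraries of the ages did not overlap.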

How the data were processed

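The authors sorted Oct4-GFP+ cells, removed ribosomal RNA from total RNA, used Trimmomatic for trimming, mm9 for mapping and featureCounts for counting on Ensembl genes, and deposited a table of RPKM values for each library. The submitters' processing notes name Trim Galore and RSEM instead. Whether counting used strand is not given in the sources used here, so overlapping and antisense genes may share reads.

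Each deposited table had 39331 rows for 37991 identifiers, of which 37205 were found in GENCODE M1 (mm9). RPKM times exon length and library total gave whole reads, within 0.05, for 98.1% to 98.3% of the values above 0, and these reads served for depth, for the filter (at least 10 reads in at least 2 libraries) and for one alternative with limma's voom. One limma model (3.58.1, R 4.3.3) with 6 groups was fitted to log2(RPKM + 1) in all 11 libraries, letting the variance follow the mean level. Fold changes are on that scale, which understates changes of low genes. Adjusted p-values are limma's, by the Benjamini-Hochberg method over 18412 genes, and calls needed 0.05 and a fold change of 1.5. The steps were tested on simulated data. Figures were drawn with matplotlib 3.10.9.

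Members and lists were chosen with earlier results of these data known. The named genes were sorting and stem cell genes, the 15 of lowest p in each direction (higher mean of at least 5 RPKM), up to 4 called genes of each list, and the 3 non-coding genes of lowest p in each direction. Other names complete a list or were chosen after their values were seen. Replicate numbers of the 2 ages mark different animals, and the deviations of same-numbered libraries correlated at 0.067, so no pairing was used. Some genes are not reported here.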

Additional observations from a re-analysis of the deposited data

How the results depend on the processing

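No alternative turned the direction of a named gene, but median-of-ratios scaling turned the balance of the counts. The counts of genes higher at 8 months and at 6 days were 2757 and 1434. They were 168 and 63 at a fold change of at least 4, 1297 to 1858 and 902 to 1149 when 1 library was left out, 2712 and 1420 with the replicate number as a block, and 2728 higher at 8 months without the 29 genes seen at 8 months alone, an alternative added after seeing the data. They were 3349 and 1911 by the FDR alone and 1994 and 2108 with median-of-ratios scaling. Under the other settings they lay between 2094 (voom) and 3149 (pseudocount of 0.1) and between 1168 (voom) and 1503 (pseudocount of 0.1). Of 170 named genes that were called, 138 kept their call whichever library was left out and 32 lost it in at least 1 case, 28 of them without 8-month replicate 1, the shallowest library, and 28 without 6-day replicate 1. Under median-of-ratios scaling 5 named calls were lost, Zbtb16 and Kit among them, and under voom 16, Tnp1, Prm2 and Pgk2 among them. With 2 libraries an age and 3 reads per kb standing for up to 0.245 RPKM, differences at low levels are poorly measured.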

Other observations

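Called genes differed in length. The median exon length was 2945 bases for genes higher at 8 months and 3752 bases for genes higher at 6 days, against 3155 bases for all tested genes. Among genes with 500 to 1000 bases of exon, 18.5% were higher at 8 months and 3.1% at 6 days, and among those with 4000 to 8000 bases 13.6% and 10.3%. The ribosomal protein and oxidative phosphorylation lists hold many short genes, and the part of length in their counts was not tested.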
